A study of Danio rerio with 24 samples.

Results

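In a set of 24 single zebrafish eggs from 5 sister mothers, the eggs of mothers 1 and 5 lay apart from the eggs of mothers 2, 3 and 4 in 240 expressed probes. A probe was chosen by its normalized log2 signal: every one of the 9 eggs of mothers 1 and 5 had to lie above, or every one below, all 15 eggs of the other mothers. Of 88754 probes read, 26746 were called expressed and 240 of these met the rule, and another 19 that met it were not called expressed. In 106 of the 240 (0.396% of the expressed probes) clutches 1 and 5 were higher, and in 134 (0.501%) they were lower. These are called separating probes here. Because this difference chose them, it is given as a description with no test.

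The mothers were wt ABTL zebrafish, with no treatment or other genotype, and each gave a single clutch, so a mother and her clutch cannot be told apart. Mature, unfertilized eggs were obtained by squeezing, 5 each from mothers 1 to 4 and 4 from mother 5. The RNA of each egg was polyadenylated and depleted of ribosomal RNA. It was then amplified, labelled with the dye Cy3 and hybridized to an array next to a Cy5-labelled reference made from pooled eggs. The study asked how far the stored RNA differs between the eggs of 1 mother and between mothers. A fish egg is filled during its growth with maternal RNA and protein, and it transcribes little itself when it is laid. The embryo lives on this store through its first cleavages, until it switches on its own genome and clears much of the maternal RNA. All values are levels relative to the other RNA of the same egg, so a change in the total RNA of an egg cannot be seen in them.

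The 24 arrays lay on 6 slides of 4. Before normalization the mean log2 Cy3 signal of all probes read ran from 6.661 to 7.19 (median 6.829) on the 9 arrays of clutches 1 and 5. On the other 15 it ran from 6.599 to 7.485 (median 7.194), so the ranges overlapped while the medians differed. Over the expressed probes alone the medians lay farther apart. The mean then ran from 7.633 to 9.334 (median 8.172) on the 9 arrays and from 7.709 to 9.79 (median 9.198) on the 15. Between 88.14% and 99.04% of the expressed probes were well above background on the 9 arrays, and between 89.31% and 99.16% on the 15. This scanner flag is not the presence call: a probe can be well above background on an array where it was not called present. Of 18 egg and germ line markers 14 were present on all 24 arrays, while sycp1 was present on 13, nanos1 on 10, zp2l2 on 6 and lhx8a on 15. Both blood markers listed, hbae1 and hbae3, were not called expressed, and these alone cannot show whether blood was absent. The ovarian somatic cell markers cyp11a1, hsd3b1 and lhcgr were present on 24, 19 and 5 arrays. The muscle markers mylpfb, tpm2, myoz1b, myom1b and pvalb9 were present on 24, 20, 9, 5 and 4. Of the 3 ovarian somatic cell markers 1 was called higher and 1 lower in clutches 1 and 5 (median difference 0.18). Of the 5 measured of 6 muscle markers 2 were called lower (median difference −0.14), and none of these 8 was a separating probe. Their part in the results below was not tested.

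The separating probes split the clutches by a median log2 difference of 0.75 where clutches 1 and 5 were higher (range 0.23 to 2.22) and of −0.75 where they were lower (range −4.50 to −0.26). As a fold the difference ran from 1.17 to 22.6 with a median of 1.69, and 64 of the 240 were more than 2-fold apart. The median size of the same difference over all expressed probes was 0.146. The gap between the nearest eggs of the 2 sides was narrower, with a median of 0.105 in the higher and 0.102 in the lower probes. Each of the 6 slides held eggs of both sides, so the rule itself fixes the direction within a slide, and only the size could vary: it ran from −4.89 to −4.03 over the slides in zgc:113340 and from 1.42 to 3.24 in rxrga. Each array was also centred on its median in place of quantile normalization. That median was taken over all 88754 probes read, of which 30.13% were expressed. It thus does not make the signal of the expressed probes equal between arrays. Such centring moved the median of all expressed probes to −0.46, that of the higher separating probes to 0.22 and that of the lower ones to −1.21. The shift was not the same for every probe. It took arfgap2 from 0.78 to 0.06, tctex1d2 from −1.95 to −1.97 and zgc:174263 from −1.18 to −1.14. Under median centring 28 of the 106 higher probes no longer had a positive difference, and a sign change named below is relative to this shift. Of the lower probes all 134 kept their sign, which a downward shift cannot turn.

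**Figure D1:**
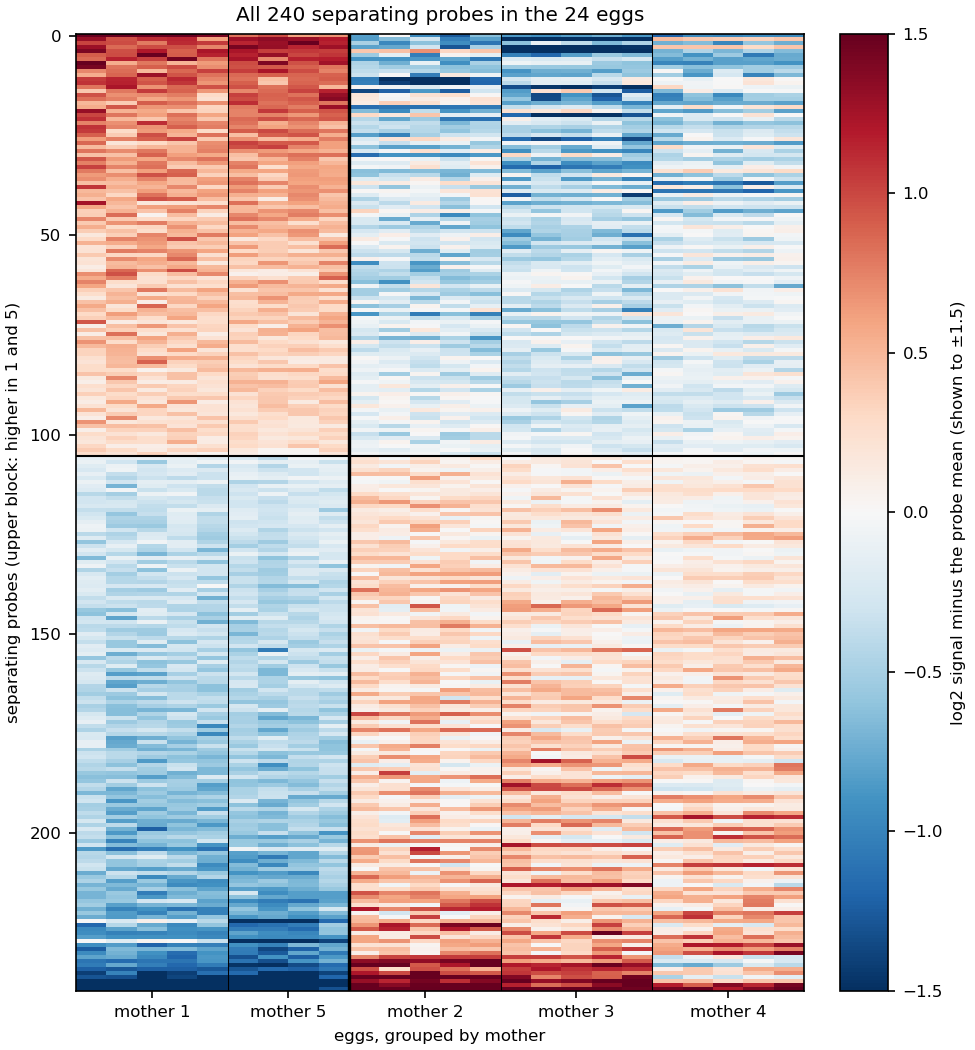
All 240 separating probes (rows) in the 24 eggs (columns, grouped by mother), coloured by the log2 Cy3 signal minus the mean of the probe, with the scale closed at ±1.5. The upper block holds the 106 probes that were higher in clutches 1 and 5 and the lower block the 134 that were lower, and rows with deep colour in only 1 of clutches 2, 3 and 4 show where those clutches also differ from each other.

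The authors' tables paired 118 of the 240 probes with an Ensembl gene (52 higher, 66 lower) and 106 with a symbol. These tables include the authors' lists of genes that differed between clutches, so having a name is not independent of these data. Of the expressed probes with a symbol 1.38% were separating and higher and 1.8% separating and lower. Over all expressed probes these shares were 0.396% and 0.501%. The shares of named or located genes below carry this limit. The other 122 probes, 54 higher with differences from 0.40 to 1.78 and 68 lower with differences from −3.52 to −0.32, have no gene in those tables and are counted but not named. Gene positions below are those of the authors' tables, on the Zv9 assembly.

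The largest difference of all, and the widest gap of the genes with a symbol, was in zgc:113340 (chromosome 18, 46164186 to 46170197), which the gene name table lists as sertad3. In mammals SERTA domain proteins work with transcription factors of the cell cycle. The eggs of mother 1 lay at 7.19, 6.92, 6.43, 6.71 and 7.11 and those of mother 5 at 6.53, 6.52, 6.51 and 8.44, while the 15 others ran from 10.93 through a median of 11.38 to 11.97. The 9 eggs were thus mostly near the dim end of the scale and the 15 lay far higher. Of the 9 arrays 6 were well above background. Egg 4 of mother 5 lay above the rest of its side and still 2.484 below the nearest egg of the other side. The clutch means were 6.88 ± 0.31 (SD, n = 5) and 7.0 ± 0.96 (SD, n = 4) against 11.49 ± 0.28, 11.64 ± 0.27 and 11.18 ± 0.18 (SD, n = 5 each), a difference of −4.50 or 22.6-fold. A probe with no gene in the tables had a wider gap, 2.751, at a smaller difference of −3.52.

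Among the other lower genes with wide gaps were genes of ribosome assembly and of protein synthesis. For rsl24d1, a factor in the making of the large ribosomal subunit (chromosome 25, 446958 to 452320), the 9 eggs ran from 8.96 through 9.38 to 9.79 and the 15 from 11.01 through 11.71 to 12.55, a difference of −2.27 or 4.83-fold. For eif2b5, the catalytic subunit of the exchange factor that recharges the initiation factor eIF2 (chromosome 2, 3062141 to 3075308), they ran from 9.29 through 9.41 to 9.64 and from 10.37 through 10.53 to 10.88, a difference of −1.10. In both genes the eggs of clutches 1 and 5 mixed with each other and stayed clear of the other 3 clutches.

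The dynein light chain gene tctex1d2 (chromosome 22, 35496904 to 35502902) was not well above background on any of the 9 arrays. Its signal there ran from 6.16 through 6.21 to 6.37, against 7.54 through 8.27 to 8.65 in the 15 eggs, which is at least 3.32-fold higher in clutches 2, 3 and 4. This bound sets the mean of the bright side against the lowest signal that was well above background on each dim array. Such a side, not well above background on any of its arrays, was found in 2 of the higher and 7 of the lower probes.

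**Figure D2:**
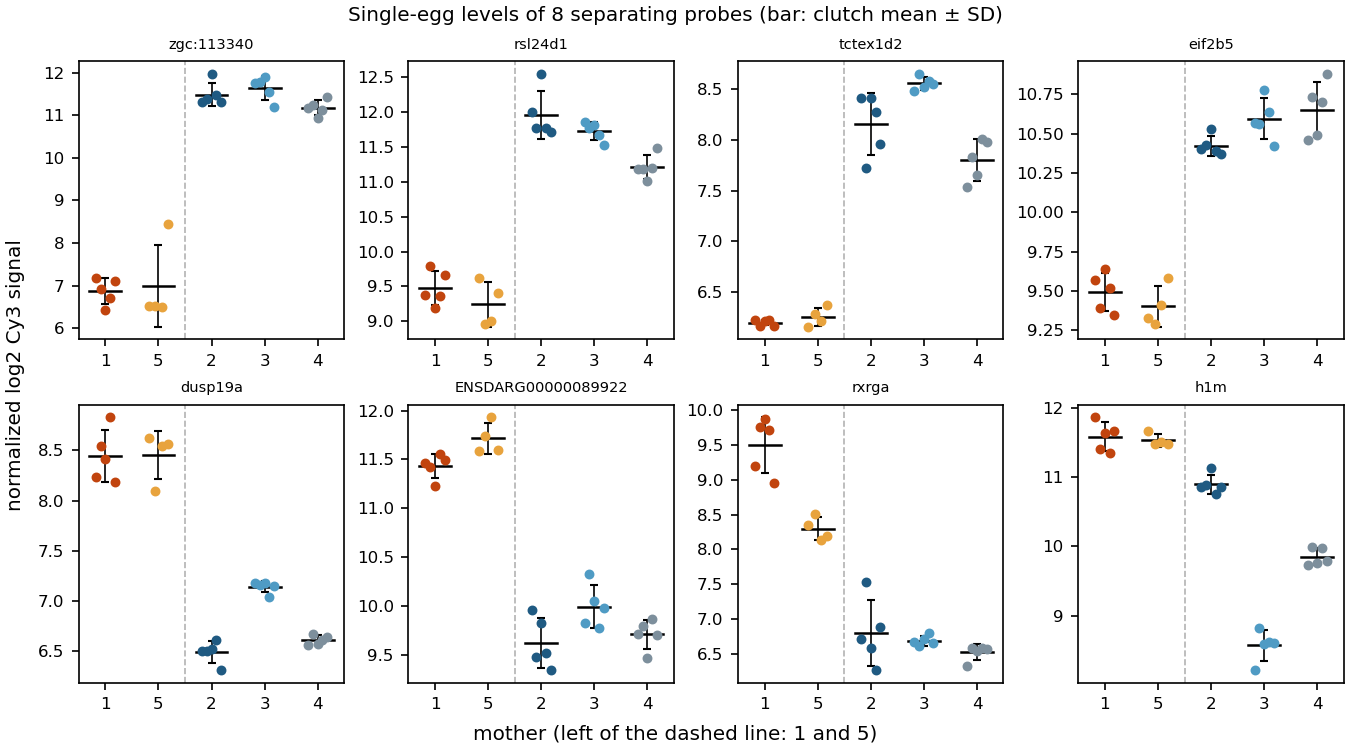
Normalized log2 Cy3 signal (y axis) of single eggs (points) of each mother (x axis), with the clutch mean and SD, for 8 separating probes. In the upper row the eggs of mothers 1 and 5 lie low, as for zgc:113340 at 6.43 to 8.44 against 10.93 to 11.97. In the lower row they lie high, with the sides of each probe more than 3-fold apart and h1m at 4 separate levels.

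The remaining lower genes among the 12 widest gaps had varied roles. The si:ch211-253p18.4 gene, listed as atp5mj, a small subunit of mitochondrial ATP synthase, ran from 8.69 through 9.26 to 9.39 in the 9 eggs and from 10.12 through 10.57 to 11.11 in the 15 (difference −1.5). The gene b3galtlb, a glucosyltransferase of the endoplasmic reticulum, ran from 6.15 through 6.22 to 6.58 and from 7.27 through 7.62 to 8.90 (difference −1.45), but was well above background on only 1 of the 9 arrays. For lims2, an adaptor at integrin adhesion sites, the difference was −1.56, for fzd8b, a receptor for Wnt signals, −0.94 and for the peptidase gene nln −0.97. The 3 genes without a settled name, zgc:112146, zgc:162898 and zgc:174263, differed by −1.59, −1.43 and −1.18. The 9 arrays measured zgc:174263 well above background on 1, fzd8b on 4 and lims2 on 8, so the differences of these rest in part on a side near background. By the limma F test given below (adjusted p under 0.05), zgc:112146, b3galtlb, lims2, zgc:162898, nln and fzd8b also differed among clutches 2, 3 and 4. The genes si:ch211-253p18.4 and zgc:174263 were not called. For zgc:112146 the clutch means were 9.27 ± 0.13 and 9.25 ± 0.18 in mothers 2 and 3 and 8.11 ± 0.22 in mother 4 (SD, n = 5 each).

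Among the genes that were higher in clutches 1 and 5, dusp19a had the widest gap of those with a symbol. It encodes a dual specificity phosphatase that acts on stress kinase signalling in mammals (chromosome 9, 44912081 to 44917676). The 9 eggs ran from 8.10 through 8.54 to 8.83 and the 15 from 6.31 through 6.61 to 7.18, a difference of 1.70 or 3.25-fold, and 11 of the 15 arrays were well above background. The means of clutches 1 and 5, 8.44 ± 0.26 (SD, n = 5) and 8.46 ± 0.24 (SD, n = 4), lay within their spread of each other, while mother 3, at 7.14 ± 0.06, lay above mothers 2 and 4 at 6.49 ± 0.11 and 6.61 ± 0.05 (SD, n = 5 each).

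The nuclear receptor gene rxrga (chromosome 2, 21067741 to 21118869), which partners retinoic acid receptors on DNA, had the largest difference of all higher probes, 2.22 or 4.67-fold. The eggs of mother 1 lay at 9.19, 9.75, 9.87, 9.71 and 8.95, those of mother 5 at 8.35, 8.51, 8.14 and 8.20, and the 15 others ran from 6.27 through 6.61 to 7.54. Here the 2 clutches of the high side did not overlap either, and 12 of the 15 arrays of the low side were well above background. The difference between mothers 1 and 5 was 1.2 (SE 0.186, limma adjusted p 5.78e-05).

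The kinetochore gene dsn1 (ENSDARG00000089922 in the files, chromosome 3, 52699659 to 52725759) ran from 11.23 through 11.56 to 11.93 in the 9 eggs and from 9.35 through 9.80 to 10.33 in the 15, a difference of 1.79. Kinetochores tie chromosomes to the spindle. The gene zgc:198329 was not well above background on any of the 15 arrays, and the 9 eggs ran from 7.13 through 7.42 to 7.77, at least 2.04-fold higher.

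The other higher genes among the 12 widest gaps differed by 0.56 to 1.22. The lipid phosphate phosphatase gene ppap2d differed by 1.22, si:ch211-276k2.2 by 1.18, the adenylate kinase family gene ak5l by 1.01, zgc:113691 by 0.97 and the lipase maturation factor gene lmf2a by 0.86. The gene arfgap2, whose product switches off the GTPase Arf on transport vesicles, differed by 0.78, pgls of the pentose phosphate pathway by 0.76, tjp2b, a scaffold of tight junctions, by 0.65 and cnksr2b, a scaffold of Ras signalling, by 0.56. On the low side ak5l was well above background on 6 of the 15 arrays, and si:ch211-276k2.2 and lmf2a each on 13. Under median centring the difference of tjp2b changed its sign, and those of arfgap2, cnksr2b and pgls fell to 0.06, 0.05 and 0.09.

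The maternal linker histone gene h1m, which packs the chromatin of the egg and early embryo, was higher in clutches 1 and 5 by 1.78. Its clutch means were 11.58 ± 0.21 (SD, n = 5) and 11.53 ± 0.09 (SD, n = 4) in mothers 1 and 5, then 10.89 ± 0.14 in mother 2, 9.85 ± 0.13 in mother 4 and 8.58 ± 0.22 in mother 3 (SD, n = 5 each). Mothers 1 and 5 overlapped, and each step below them was free of overlap, which makes 4 levels over the 5 clutches. Of the 18 genes of the egg and germ line list, limma called 4 higher, 7 lower and 7 neither, and the median difference was 0.00. The 3328 expressed probes with a symbol, which are the background for all lists here since the lists were drawn from the same tables, had a median of −0.038, with 20.9% called higher and 30.3% lower. Besides h1m only lhx8a, a homeobox gene of oocytes, was a separating probe, and it was lower (6.48 to 7.07 against 7.16 to 7.58).

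In the list of transcription factors and their partners, 81 of 89 genes were measured, and limma called 27 higher, 22 lower and 32 neither, with a median difference of −0.02. Of the 3328 expressed probes with a symbol 1.38% were separating and higher and 1.8% separating and lower. Limma called 20.9% of these 3328 higher and 30.3% lower, against 15.1% and 18.2% of all 26746 expressed probes. The p-values behind these calls measure the spread between eggs of a clutch and not between mothers, and an exact test of 2 against 3 mothers could not go below 0.1. Of the 6 separating probes in the list, 4 were higher: rxrga, cux2b (0.68), pbx4 (0.48), a partner of Hox proteins, and id3 (1.34), an inhibitor of helix-loop-helix factors. The lower ones were lhx8a and gata6 (−0.71), a zinc finger factor of endoderm and heart, which were well above background on 7 and 1 of the 9 arrays and on 15 and 14 of the 15. For id3, mother 2, at 10.31 ± 0.13, came close to mother 1, at 10.85 ± 0.24 (SD, n = 5 each), and pbx4 changed its sign under median centring.

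Of the 61 genes of glycosylation and GPI anchors, limma called 5 higher, 26 lower and 30 neither (median difference −0.13), and 6 were separating probes, all of them lower. Over the 3328 expressed probes with a symbol, 1.38% were separating and higher and 1.8% separating and lower. This list, like the others, was chosen with earlier results of these data known. Its counts are thus a description and were not tested against that background. The genes alg3 and alg12, whose enzymes add mannose to the precursor of N-linked sugar chains, differed by −0.54 and −0.68. The gene pigw, for an acyltransferase of GPI anchor synthesis, differed by −0.67, slc35a3b, for a sugar nucleotide transporter, by −0.65, b3gnt5b, which starts the sugar chains of a glycolipid class, by −0.79, and b3galtlb as above. The gap between the sides was narrowest in alg3, with the highest of the 9 eggs at 9.82 and the lowest of the 15 at 9.86, and widest in b3galtlb, at 0.689. On the 9 arrays b3gnt5b was well above background on 5.

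The list of protein entry and folding in the endoplasmic reticulum had a similar makeup. Of its 40 genes limma called 6 higher, 17 lower and 17 neither (median difference −0.15), and its 3 separating probes were lower. These were dnajc10 (−1.01), a reductase of disulfide bonds, pdia4 (−0.77), a disulfide isomerase, and ufc1 (−0.45), an enzyme that attaches the ubiquitin-like protein Ufm1. The eggs ran from 9.89 to 10.53 against 10.61 to 11.51 for pdia4 and from 10.43 to 10.59 against 10.73 to 11.28 for ufc1.

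Of 73 measured genes of 75 for vesicle traffic and the lysosome, limma called 17 higher, 24 lower and 32 neither (median difference −0.07). The separating probes here went both ways: arfgap2 (0.78) and the lysosomal membrane gene laptm4a (0.63) were higher, and rabif (−0.87), a chaperone of Rab proteins, vps11 (−0.58), a tethering subunit at endosomes, and tmem199 (−0.51), needed for the vesicular proton pump, were lower. The sign of laptm4a changed under median centring.

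Of 48 genes of mitochondrial import and the mitochondrial ribosome, 9 were called higher, 13 lower and 26 neither by limma (median difference 0.00), and mrps21 (−0.76), a protein of the mitochondrial ribosome, and timm17a (−0.75), of the inner membrane import channel, were separating probes. For mrps21 the tables list another expressed probe as sharing sequence, and it met the rule as well, with a median of 11.69 in the 9 eggs against 12.40 in the 15 (difference −0.75). Of the 43 genes of the cell cycle and DNA damage checkpoint, 8 were called higher, 8 lower and 27 neither (median difference 0.00). The 2 separating probes among them were higher: the checkpoint kinase gene chek2 (11.33 to 11.58 against 10.75 to 11.21) and cdca5, which guards the cohesion of sister chromatids (11.94 to 12.41 against 11.08 to 11.89). Both changed their sign under median centring.

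At the edge of the rule the gap was a few thousandths. Just inside lay cyp2r1 (9.93 to 10.35 against 9.33 to 9.93, gap 0.001) and lsr (gap 0.005) on the higher side, and timm17a (gap 0.003) and pdzd11 (gap 0.005) on the lower. Just outside lay rnf152 (−0.006) and ppap2b (−0.007) on the higher side, and zdhhc12a (−0.005) and zgc:110783 (−0.006) on the lower, where a negative gap is an overlap. The differences were 0.40, 0.49, −0.75 and −0.26 for the genes inside and 0.28, 0.78, −0.82 and −0.63 for those outside, in the same order. The signs of cyp2r1, lsr and rnf152 changed under median centring. Egg 1 of mother 1 set the edge of its side in 43 of the 240 probes, the most of any egg.

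The rule did not compare clutches 1 and 5 with each other, but it chose probes in which both lay on the same side of all others. Shares and sizes in the separating probes below are thus not independent of the rule. Between mothers 1 and 5 limma called 2904 of the expressed probes different (10.9%), and 11 of the 240 separating probes (4.58%). The rule favours probes with a small spread from egg to egg, which bears on this share and on the next. The median size of the difference between mothers 1 and 5 was 0.115 in the separating probes and 0.146 over all expressed probes. The largest was in ENSDARG00000090118, listed as qdprb.3 and named here after its values were seen, which lay at 13.21 in mother 1 and 11.50 in mother 5 (difference 1.71, limma adjusted p 1.06e-10). Its 15 other eggs ran from 13.62 to 14.04, so mother 1 lay far nearer to the other side than to mother 5. The gene slc25a25a, for a mitochondrial carrier, differed by −0.28 between mothers 1 and 5 (limma adjusted p 0.0152). With the rule applied anew without single eggs, 6 probes differed without egg 2 or egg 3 of mother 5 and 20 without egg 1 of mother 1.

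Clutches 2, 3 and 4 were not alike. The limma F test among them called 14275 expressed probes (53.4%) and 154 of the 240 separating probes (64.2%), 72 of the higher and 82 of the lower. In the higher probes the clutch farthest from clutches 1 and 5 was that of mother 3 in 51, of mother 2 in 35 and of mother 4 in 20. In the lower probes it was that of mother 2 in 55, of mother 3 in 41 and of mother 4 in 38. Counted by ranges that do not overlap, 150 probes had 2 levels over the 5 clutches, 80 had 3 and 10 had 4. The genes eif2b5 and lmf2a are examples of 2 levels, and h1m is one of 4.

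The Cy5 signal of the reference on the same arrays served as a control that the rule had not used. The reference was the same pool on every array, so it can show effects of hybridization or scanning. It cannot show effects of the polyadenylation, amplification or Cy3 labelling of each egg. The same contrast called 0 of 26746 probes in the Cy5 signal by limma (0%), with 439 (1.64%) under an unadjusted p of 0.05, and among the separating probes 4 of 240 (1.67%) were under it. The Cy5 difference of the separating probes ran from −0.19 to 0.17, with a median size of 0.044 against 0.039 over all expressed probes. In Cy3 the median size was 0.753 in the same probes, which the rule chose for this difference.

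**Figure D3:**
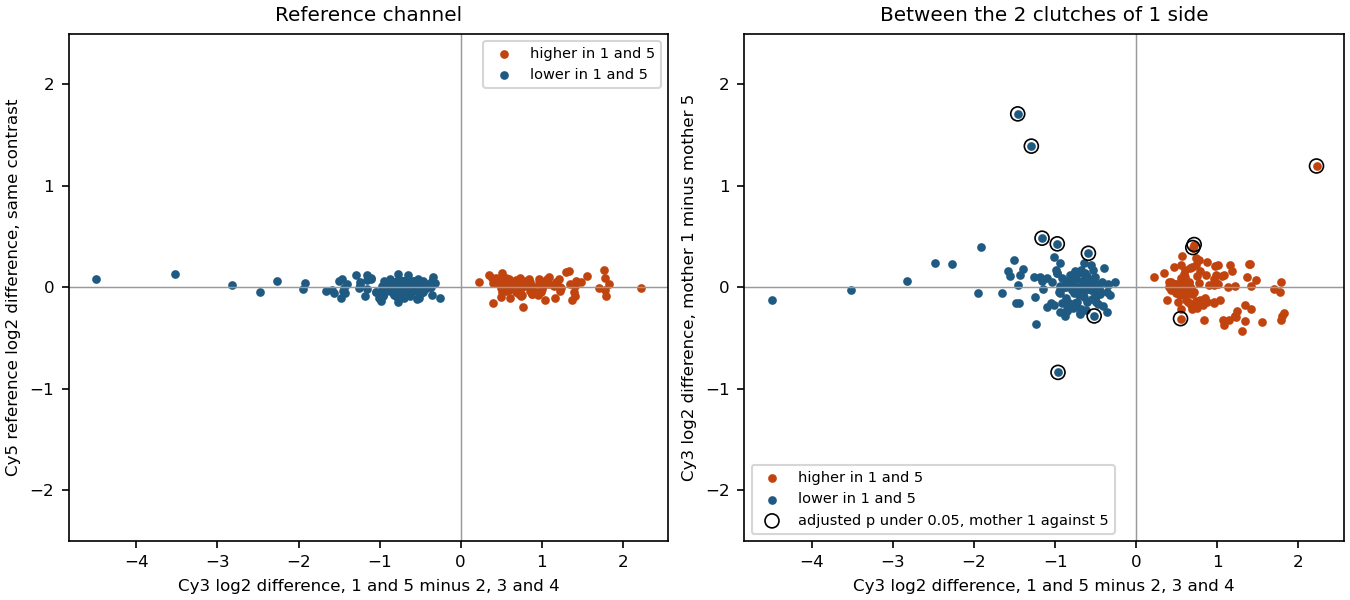
For each of the 240 separating probes, the Cy3 log2 difference of clutches 1 and 5 from clutches 2, 3 and 4 (x axis) is set against the same difference in the Cy5 reference (left, y axis) and against the Cy3 difference between mothers 1 and 5 (right, y axis). The reference stayed between −0.19 and 0.17, and the 11 circled probes differed between mothers 1 and 5.

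Some separating genes were neighbours. Of the 96 located genes, spread over 24 chromosomes, 10 pairs started within 500 kb of each other, 3.94% of the 254 pairs on a shared chromosome against 2.71% of the 157353 such pairs of all located expressed genes. The 96 were 3.47% of the 2770 located expressed genes. The 3 chromosomes with the most were chromosome 2 with 13 of 134, chromosome 5 with 9 of 153 and chromosome 18 with 8 of 94, and chromosome 6 had 0 of 103. In 5 pairs both genes went the same way and in 5 they went opposite ways. The closest pair, si:ch211-276k2.2 and tctex1d2 on chromosome 22, started 41.6 kb apart, and the former was higher in clutches 1 and 5 (7.74 to 8.34 against 6.53 to 7.13) while the latter was lower. On chromosome 9, dusp19a was higher and dnajc10 lower at 156.9 kb.

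Pairs that went the same way were slc35a3b and cmpk, a kinase of pyrimidine nucleotides, at 73.3 kb on chromosome 2, rabif and timm17a at 84.5 kb on chromosome 11, acaa2, a thiolase of mitochondrial fatty acid breakdown, and slc25a25a at 96.4 kb on chromosome 8, and pon3 and ENSDARG00000040284 at 162.2 kb on chromosome 16, all lower. The pair pgls and dsn1 at 269.8 kb on chromosome 3 was higher. For cmpk, 3 further probes listed as sharing its sequence differed by 0.24, −0.12 and 0.36, unlike the −0.94 of the separating probe, so its level depends on the probe. The opposite pairs at larger distances were lmf2a (higher) with zgc:110373, listed as the cilia gene cfap161 (384.8 kb), med22 (higher), a subunit of the Mediator complex, with the ubiquitin ligase gene lrsam1, well above background on 1 of the 9 arrays (422.4 kb), and ENSDARG00000073761 (higher, though its sign changed under median centring), listed as the mitochondrial myosin gene MYO19, with the cystatin family gene cst14b.1 (461.7 kb).

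**Figure D4:**
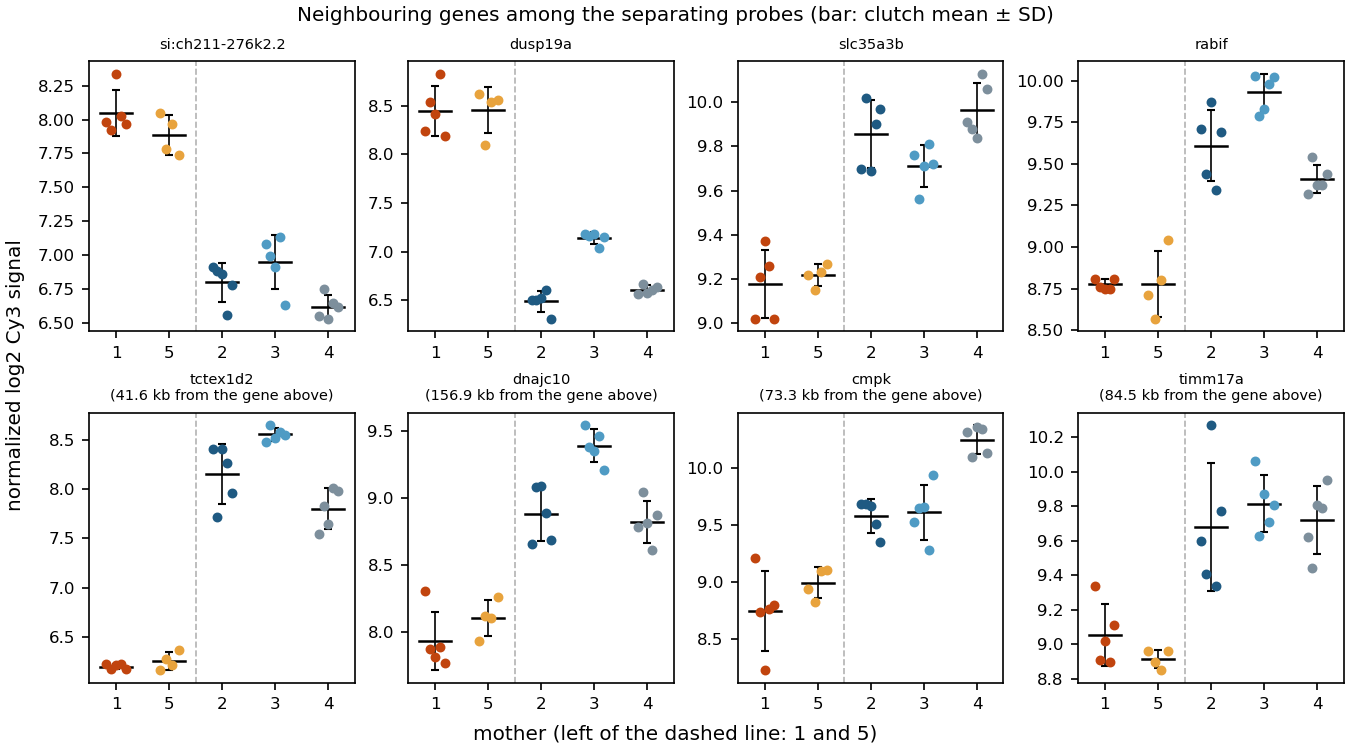
Normalized log2 Cy3 signal (y axis) of single eggs (points) by mother (x axis), with the clutch mean and SD, for 4 pairs of neighbouring genes, 1 above the other. In the first 2 pairs the genes went opposite ways, with 41.6 and 156.9 kb between their starts, and in the last 2 both were lower in clutches 1 and 5, with 73.3 and 84.5 kb between them.

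The same rule applied to 2 other pairs of clutches, the only others counted, gave counts of the same order or larger. Clutches 2 and 3 lay above all others in 475 expressed probes (1.78%) and below in 374 (1.4%). Clutches 4 and 5 lay above in 157 (0.587%) and below in 132 (0.494%). The separation of clutches 1 and 5 was thus smaller in number than that of clutches 2 and 3. How many probes met the rule also depended on the signal used, from 3 higher and 21 lower after median centring to 106 and 134 in the deposited values.

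**Figure D5:**
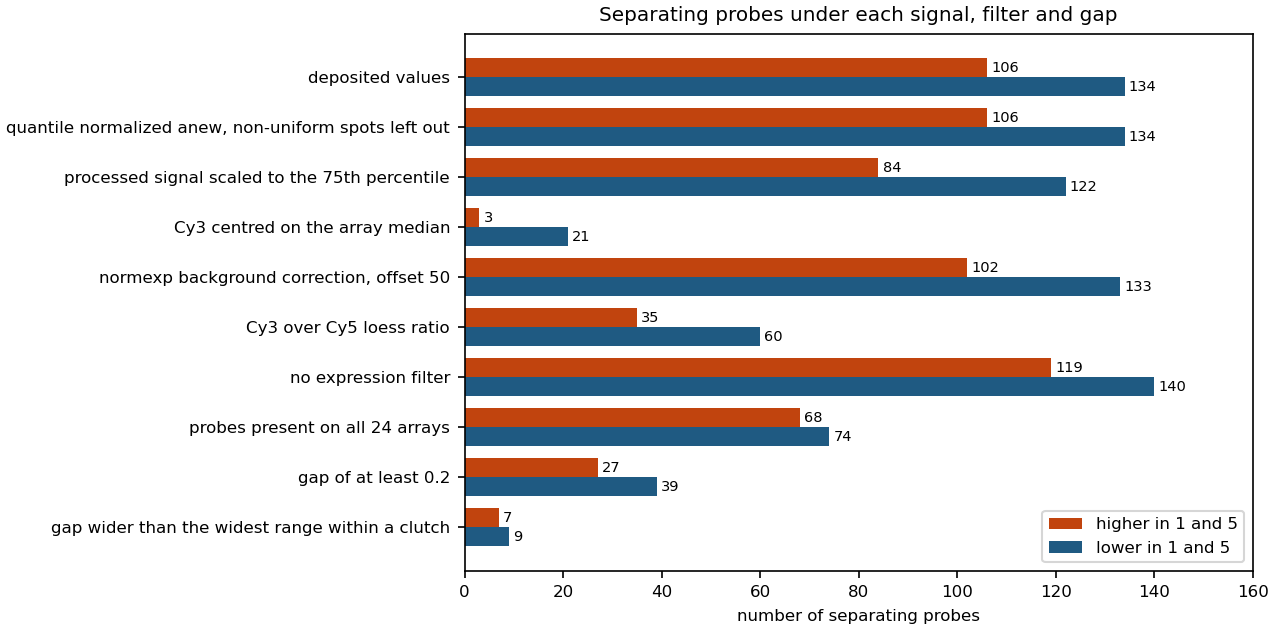
Number of separating probes (x axis) that were higher or lower in clutches 1 and 5 under each signal, filter and gap (y axis). The deposited values gave 106 and 134, a gap of at least 0.2 gave 27 and 39, and median centring gave 3 and 21.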

How the data were processed

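Each of 24 arrays measured the RNA of 1 egg in Cy3 and a pooled egg reference in Cy5. The authors deposited the log2 Cy3 signal, quantile normalized between arrays, which was used as it stands. The paper removed genes whose signals it could not normalize, apparently because their RNA was already polyadenylated. Such genes were not left out here, and their part among the separating probes was not tested. The authors also deposited scanner files whose median and processed signals are intensity values from Agilent Feature Extraction 10.7.3.1, per the submitters' processing notes, and these gave the Cy5 values and the alternatives. Columns of the authors' own comparisons were not used, and 0 value columns had no sample.

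Probes were called expressed where the probability of presence was over 0.95 on at least 4 arrays. This probability set, on each array, the signals of probes with a variance over arrays above −3.68 (log2) against those of the others. A probe did not itself have to pass that variance. Contrasts were fitted with limma 3.58.1 in R 4.3.3 (lmFit, eBayes, a mean for each mother, Benjamini-Hochberg at 0.05), after the script was tested on simulated data. Figures were drawn with matplotlib 3.10.9. Arrays hold no counts, so their number limits the precision.

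Genes named are the 12 with the widest gap in each direction, members of the gene lists (glycosylation and GPI anchors, endoplasmic reticulum, vesicles and lysosome, mitochondria, cell cycle, transcription factors, egg and germ line, ovarian somatic cells, blood, muscle), the 2 nearest the edge on each side, and neighbours within 500 kb. Members and lists were chosen with earlier results of these data known. Current names, matched for 93 of 118 genes, come from a gene name table. No sequences are shown. The alternatives were other scalings, background correction, the dye ratio, filters, gaps, clutch means, slide, position and egg number as blocks, array weights, the array mean as a covariate, and each egg left out.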

Additional observations from a re-analysis of the deposited data

Results flagged for a closer look

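For the named genes and the mean array signal, each clutch was searched for a single egg that lay far from the others by Dixon's test. Of 325 clutches tested, 20 (6.15%) had such an egg, and chance gives about 1 in 20. The egg farthest out was egg 4 of mother 5 in zgc:113340, at 8.44 against 6.51 to 6.53 in the other 3 eggs of mother 5. In this gene egg 3 of mother 2 lay at 11.97, above 11.30 to 11.48. Eggs above their clutch were also egg 1 of mother 2 in pgls (9.35 against 9.07 to 9.12), egg 1 of mother 5 in h1m (11.67 against 11.48 to 11.50), egg 3 of mother 1 in si:ch211-276k2.2 (8.34 against 7.92 to 8.03), egg 1 of mother 1 in dnajc10 (8.31 against 7.77 to 7.89) and egg 3 of mother 4 in b3gnt5b (7.87 against 7.62 to 7.67).

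Eggs below their clutch were egg 1 of mother 4 in pgls (9.01 against 9.10 to 9.12) and in rxrga (6.33 against 6.55 to 6.59), egg 5 of mother 1 in pdzd11 (9.98 against 10.04 to 10.06), egg 5 of mother 4 in ENSDARG00000073761 (7.30 against 7.36 to 7.37) and egg 5 of mother 3 in med22 (7.17 against 7.50 to 7.60). In si:ch211-253p18.4 these were egg 1 of mother 1 (8.81 against 9.26 to 9.39) and egg 3 of mother 2 (10.12 against 10.46 to 10.51), and in dusp19a egg 4 of mother 3 (7.04 against 7.15 to 7.18) and egg 2 of mother 5 (8.10 against 8.54 to 8.62). The rest were egg 1 of mother 2 in zgc:112146 (9.03 against 9.30 to 9.34), egg 3 of mother 5 in arfgap2 (11.99 against 12.18 to 12.19), egg 2 of mother 2 in slc25a25a (14.25 against 14.32 to 14.34) and egg 3 of mother 2 in cux2b (7.27 against 7.62 to 7.74).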

How the results depend on the processing

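Median centring left 3 higher and 21 lower separating probes (3 and 16 shared with those of the deposited values), 1153 limma calls (50 higher, 1103 lower), 43 between mothers 1 and 5, 2819 among mothers 2, 3 and 4, and 0 and 3 separating probes in these last 2 tests. It turned the difference of rnf152 to −0.126, ENSDARG00000073761 to −0.003, chek2 to −0.201, laptm4a to −0.065, lsr to −0.239, pbx4 to −0.041, cdca5 to −0.009, tjp2b to −0.055 and cyp2r1 to −0.257. Of the limma calls 4.3% were then higher, against 45.4% in the deposited values. The dye ratio gave 35 and 60 separating probes (29 and 47 shared), 5427 calls (2252 and 3175), 1085 between mothers 1 and 5, and 2 and 44 separating probes. The cause was not tested. Probes present on all 24 arrays, a smaller set, gave 68 and 74 separating probes, 5332 calls (2596 and 2736), 1629 and 8831, and 5 and 82 separating probes. Without an expression filter 7 differed between mothers 1 and 5. A gap of at least 0.2 left 27 and 39, and a gap wider than the widest range within a clutch 7 and 9. Clutch means in place of eggs, a looser rule that lets single eggs overlap, gave 3203 and 3207 of the 26746 expressed probes. Array weights gave 5275 calls between mothers 1 and 5, with 31 separating probes.

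With each egg left out in turn, 106 to 126 probes were higher and 134 to 179 lower. Limma called 7785 to 9603 (3520 to 4426 higher, 4237 to 5177 lower), 2083 to 3475 between mothers 1 and 5 (6 to 20 separating probes), 13017 to 16039 among the others (142 to 192 separating probes) and 0 in Cy5. With the egg number as a replicate block the calls were 8656, 2576, 13919 and 0 in Cy5, with 9 and 148 separating probes. The deviations of eggs of the same number from their clutch means correlated by −0.001 on average over 46 pairs. Single pairs ran from −0.525 to 0.661. For eggs of different numbers and mothers the average was −0.002. For the 64 named genes, differences were compared over 29 settings each, 24 of which left out 1 egg and the rest changed the signal. Of these 1856 differences, 1746 stayed within the spread, 101 moved and 9 changed sign. Leaving out an egg gave 0 of the moves, median centring 46 and the dye ratio 19. All 9 sign changes came with median centring. Signals near background limit the dim side of low probes.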

Other observations

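A few separating genes outside the naming rule, chosen here after their values were seen, had differences as large as those above. The gene btr16 was higher in clutches 1 and 5 by 1.83 (9.15 to 9.88 against 6.70 to 9.02) and had 4 levels over the clutches. The guidance receptor gene robo4 differed by 1.35, atl1, which shapes tubules of the endoplasmic reticulum, by 1.24, and tpm4b, a tropomyosin, by −1.26. The gap junction gene cx30.9 differed by −1.24, rgs17, a regulator of G protein signalling, by −1.05, and the cytoplasmic deacetylase gene hdac6 by −0.90. Of the 19 probes that met the rule but were not called expressed, 13 were higher and 6 lower, and their order rests on signals near background.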
